A study of Mus musculus with 8 samples.

Results

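The Hox cluster genes and the Cdx genes are described here in the mouse fetal gonad at embryonic day 13, in sorted supporting cells and in whole gonads. All probe sets with 1 gene symbol that named a gene of the Hoxa, Hoxb, Hoxc or Hoxd cluster, or Cdx1, Cdx2 or Cdx4, were taken, whatever their values. There were 52 such probe sets among 45037 tested, for 36 genes: 16 probe sets for 9 Hoxa genes, 11 for 9 Hoxb genes, 11 for 7 Hoxc genes, 10 for 8 Hoxd genes and 4 for 3 Cdx genes. Genes of the clusters with no probe set of a single symbol were not analysed here.

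Hox genes encode homeodomain transcription factors and lie in clusters, in which genes near the 3′ end (low numbers) are used early and toward the head, and genes near the 5′ end (high numbers) later and toward the tail. The Cdx genes lie outside these clusters, regulate Hox genes along the trunk, and include Cdx2, a master regulator of intestinal epithelium and of trophectoderm. HOX proteins bind DNA together with PBX, MEIS and PKNOX partners, Polycomb proteins hold the clusters silent, and retinoic acid opens them from the 3′ end. Several 5′ Hox genes pattern the mesoderm of the urogenital tract, in which the gonad forms.

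The study hybridised 8 Affymetrix Mouse Genome arrays, 2 in each of 4 groups. XX pre-granulosa cells (about 30000 per sample) and XY Sertoli cells (about 22000 per sample), the supporting cells that enclose the germ cells, were sorted as EGFP-positive cells from fetal gonads. Ovaries and testes were each measured as a pool of 4 whole gonads per sample. Every sample, the whole gonads included, carries the strain label C57BL6/J-Tg92. The promoter that drives EGFP in this line, and the purity of the sort, are not given in the sources used here. Nor is it stated whether replicates are distinct animals or litters, so p-values measure only the spread between these samples.

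The values are log2 expression as deposited, and a difference of 1 is a factor of 2. A probe set was called where limma's moderated test gave a Benjamini-Hochberg adjusted p of at most 0.01 over all 45037 probe sets, and only called differences are termed higher or lower. Values up to 4.78 were treated as background, that being the highest reading in XX samples of 9 probe sets for Uty, Kdm5d and Eif2s3y, all on the Y chromosome. The standard deviation between replicates, as a root mean square over the 52 probe sets, was 0.46 in pre-granulosa cells, 0.354 in Sertoli cells, 0.214 in ovaries and 0.304 in testes. The ranked values of the 4 sorted-cell arrays and of the 4 gonad arrays differed by a median of 0.383, so the 2 sets appear to have been normalized separately. Each sorted minus gonad difference is therefore printed less the median of all probe sets (-0.21 for Sertoli minus testis and -0.25 for pre-granulosa minus ovary), while its p tests the difference itself. Where all arrays of the dimmer group read background, the smallest difference is also given on the printed scale, with those arrays set to 4.78. The marker genes followed the labels: Sertoli markers rose in Sertoli cells over pre-granulosa cells for 7 of 10 genes, and pre-granulosa markers fell for 4 of 8. Means of the 7 germ cell markers lay between 4.54 and 5.27 on the sorted arrays and between 9.66 and 10.23 on the gonad arrays. In whole gonads and sorted cells alike, fewer cells of a type and less RNA per cell cannot be told apart.

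The 4 Hoxd genes that moved together, and Cdx2, carry many of the differences reported here, so the 250 bases before their RefSeq start sites (GRCm38.p6) are shown, 5′ to 3′ on the gene's strand. The windows are chr2:74711743-74711992 (+) for Hoxd3, chr2:74704365-74704614 (+) for Hoxd8, chr2:74697513-74697762 (+) for Hoxd9, chr2:74691641-74691890 (+) for Hoxd10 and chr5:147307250-147307499 (-) for Cdx2. Capitals mark matches, on either strand, to the CCAAT box (read ATTGG on the opposite strand) or to TTTATG, the core letters of a CDX or 5′ HOX site.
Hoxd3: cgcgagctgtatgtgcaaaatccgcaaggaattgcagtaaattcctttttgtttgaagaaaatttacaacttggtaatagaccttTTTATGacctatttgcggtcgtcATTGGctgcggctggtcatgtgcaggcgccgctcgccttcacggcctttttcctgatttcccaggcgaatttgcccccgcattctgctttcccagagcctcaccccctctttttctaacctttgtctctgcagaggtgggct
Hoxd8: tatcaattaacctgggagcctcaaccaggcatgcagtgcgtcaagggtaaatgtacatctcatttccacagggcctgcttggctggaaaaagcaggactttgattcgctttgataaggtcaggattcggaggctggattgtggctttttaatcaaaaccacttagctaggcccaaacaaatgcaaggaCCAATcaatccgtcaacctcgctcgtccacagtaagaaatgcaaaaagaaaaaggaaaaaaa
Hoxd9: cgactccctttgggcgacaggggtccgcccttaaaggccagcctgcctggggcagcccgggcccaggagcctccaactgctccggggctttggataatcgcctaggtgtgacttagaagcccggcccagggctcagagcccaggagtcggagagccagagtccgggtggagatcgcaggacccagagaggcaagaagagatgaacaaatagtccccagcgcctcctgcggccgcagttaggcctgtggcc
Hoxd10: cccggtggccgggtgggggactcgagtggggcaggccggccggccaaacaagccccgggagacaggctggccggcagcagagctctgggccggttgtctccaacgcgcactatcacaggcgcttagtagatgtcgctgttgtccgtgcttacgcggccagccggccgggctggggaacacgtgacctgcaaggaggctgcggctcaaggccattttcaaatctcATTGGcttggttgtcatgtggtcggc
Cdx2: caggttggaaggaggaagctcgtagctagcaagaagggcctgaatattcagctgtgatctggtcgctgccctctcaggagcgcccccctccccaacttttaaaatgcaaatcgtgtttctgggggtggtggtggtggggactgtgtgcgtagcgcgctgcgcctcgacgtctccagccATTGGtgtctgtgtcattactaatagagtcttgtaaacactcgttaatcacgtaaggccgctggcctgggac
The motifs searched on both strands were the CCAAT box, a TATA box (TATAAA), the CDX or HOX core (TTTATG) and a PBX-HOX pair (TGATNNAT), and no match overlapped another in these 5 windows. CCAAT was found once in the windows of Hoxd3, Hoxd8, Hoxd10 and Cdx2, the CDX or HOX core once in that of Hoxd3, and none of the 4 motifs in that of Hoxd9. Among 32851 RefSeq promoter windows of this length, 33.8% held the CCAAT box, 12.4% the TATA box, 10.8% the CDX or HOX core and 7.7% the PBX-HOX pair. Windows were in the table for 21 of the 36 genes, 23 windows in all, of which 13 held the CCAAT box, 2 the TATA box, 3 the CDX or HOX core and 3 the PBX-HOX pair. The windows shown held 12 CpG dinucleotides for Hoxd3, 6 for Hoxd8, 13 for Hoxd9, 20 for Hoxd10 and 13 for Cdx2, against a median of 6 over all windows and 13 over the 23. A match of letters is a description and not a bound site.

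Expression of the family was uneven by cluster and by position. On all 8 arrays 22 of the 52 probe sets read over background, and on no array 13 did. Those 13 included every probe set of Hoxa11, Hoxa13, Hoxb2, Hoxb6, Hoxb7, Hoxc13, Hoxd1, Hoxd13 and Cdx4. The last 5′ genes, Hoxa13, Hoxc13 and Hoxd13, were thus at background, while Hoxb13 was over it on 7 arrays. Next to Hoxd13, Hoxd12 was over background on 8 arrays and Hoxd11 on 5. No gene between Hoxc10 and Hoxc13 was read. In 12 genes more than 1 probe set was present, and a gene is read below from the probe set with the highest mean unless another is named.

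**Figure D1:**
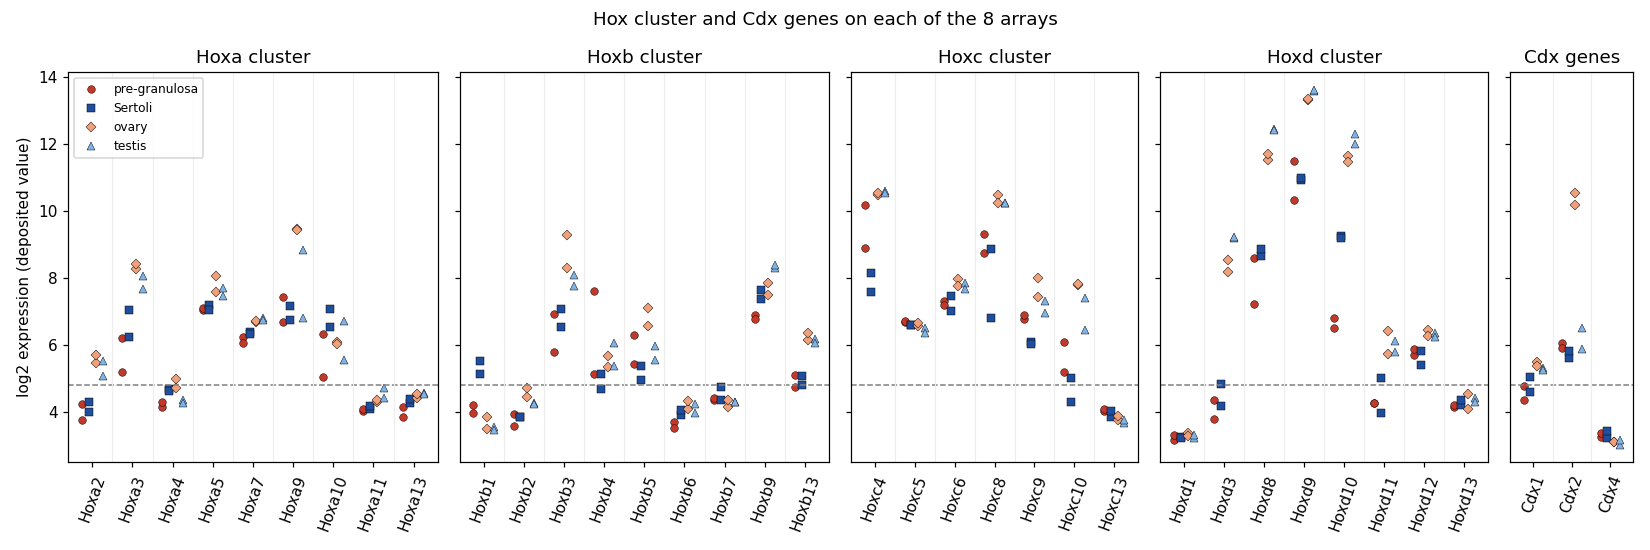
Deposited log2 expression (vertical axis) of the 36 genes, ordered by cluster and gene number, with 1 point per array and the colour and shape giving the group. The dashed line is the background level of 4.78. The 4 genes Hoxd3, Hoxd8, Hoxd9 and Hoxd10 sit above the sorted cells in both gonads, and Cdx2 stands at 10.54 and 10.18 in ovaries alone.

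Sorted supporting cells were first set against whole gonads of the same sex, which were separate samples. Hoxd3, Hoxd8, Hoxd9 and Hoxd10, which lie between Hoxd1 and Hoxd11, were lower in both sorted populations than in the gonads. Hoxd4, between Hoxd3 and Hoxd8, was not among the genes read. Of the 52 probe sets, 11 were called in Sertoli minus testis, 1 higher and 10 lower, and 11 in pre-granulosa minus ovary, all lower. Among all probe sets 8.64% were called in the first comparison (1.24% higher, 7.40% lower) and 8.28% in the second (1.28% higher, 7.0% lower). The median difference of the 52 was -0.28 and -0.54, against 0 for all probe sets by construction. Called lower in both comparisons were 5 of the 10 Hoxd probe sets, 1 of Hoxa3 and 1 of Hoxb13, where 4.04% of all probe sets were. The groups did not overlap for 35 probe sets with lower and 7 with greater values in Sertoli cells than in testes (49.3% and 21.9% of all), and for 39 and 4 in pre-granulosa cells against ovaries (47.8% and 17.7% of all). The median over the 10 Hoxd probe sets was -1.85 in each comparison.

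Hoxd3, the most 3′ of the 4, patterns axial and neck structures. Its probe set 1437664_at read 3.79 and 4.34 in pre-granulosa cells, 4.17 and 4.81 in Sertoli cells, 8.17 and 8.54 in ovaries, and 9.19 and 9.21 in testes. Of the sorted arrays only Sertoli 2 was over background, and all gonad arrays were well over it, so neither pair of groups overlapped. The fitted difference was -4.50 ± 0.29 (SE, n = 2 per group, adjusted p 7.72e-04) for Sertoli minus testis, and -4.19 with Sertoli 1 set to background. For pre-granulosa minus ovary it was -4.04 ± 0.29 (adjusted p 0.00101), and with both pre-granulosa arrays at background the difference was at least 3.32 log2 units.

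Hoxd8 was lower by both of its probe sets. The brighter, 1433638_s_at, read 7.21 and 8.59 in pre-granulosa cells, 8.65 and 8.87 in Sertoli cells, 11.54 and 11.72 in ovaries, and 12.47 and 12.44 in testes. No sorted array came near a gonad array, though the pre-granulosa replicates stood 1 log2 unit and more apart. The difference was -3.48 ± 0.42 in both comparisons, 11.1-fold, with adjusted p of 0.00309 in Sertoli minus testis and 0.00331 in pre-granulosa minus ovary. The second, 1431099_at, gave -5.19 ± 0.45 (36.5-fold, adjusted p 0.00144) in Sertoli minus testis and -4.34 ± 0.45 (adjusted p 0.00239) in pre-granulosa minus ovary, where pre-granulosa 2 read background. With 1 array omitted, the brighter probe set was called in 2 of 8 fits in Sertoli minus testis and in 4 of 8 in pre-granulosa minus ovary.

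Hoxd9, a 5′ gene of limb and posterior trunk, read 10.34 and 11.51 in pre-granulosa cells, 10.94 and 10.99 in Sertoli cells, 13.32 and 13.34 in ovaries, and 13.61 and 13.63 in testes. Both sorted populations kept readings far over background, and all of them lay under the gonads. The difference was -2.44 ± 0.35 (5.44-fold, adjusted p 0.00503) in Sertoli minus testis and -2.15 ± 0.35 (4.44-fold, adjusted p 0.00723) in pre-granulosa minus ovary, and each was called in 2 of 8 fits with 1 array omitted.

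Hoxd10, its 5′ neighbour, had the lowest adjusted p of the 52 probe sets in both sorted minus gonad comparisons and was the only Hoxd gene that also differed between the sorted populations. Its probe set 1418606_at read 6.50 and 6.78 in pre-granulosa cells, 9.26 and 9.19 in Sertoli cells, 11.66 and 11.47 in ovaries, and 12.02 and 12.29 in testes. The 4 groups did not overlap at any step of that order. Sertoli minus testis was -2.72 ± 0.18 (6.60-fold, adjusted p 7.44e-04) and pre-granulosa minus ovary -4.67 ± 0.18 (25.5-fold, adjusted p 3.90e-04).

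Farther along the cluster the differences were smaller and not called. Hoxd11 read 4.25 and 4.26 in pre-granulosa cells and 5.71 and 6.42 in ovaries, with differences of -1.55 (adjusted p 0.0223) there and -1.26 (adjusted p 0.0411) in Sertoli minus testis. With both pre-granulosa arrays at background, the first was at least 1.03 log2 units. Hoxd12 gave -0.31 and -0.48 in the same order. Hoxd1 and Hoxd13, at the ends of the cluster, read background on every array.

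**Figure D2:**
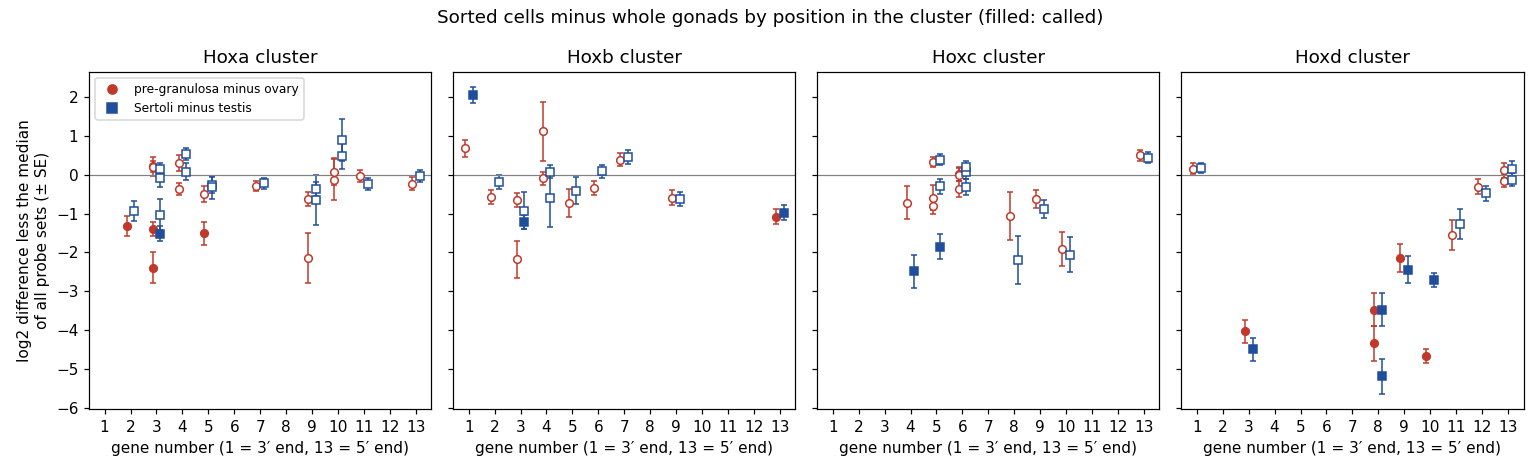
Log2 difference of sorted cells from whole gonads, less the median of all probe sets (vertical axis, bars show the SE), for each probe set by gene number in its cluster (horizontal axis). Red circles are pre-granulosa minus ovary and blue squares Sertoli minus testis, filled where called. In the Hoxd panel the called points run from -5.19 to -2.15 at genes 3, 8, 9 and 10, between uncalled points at genes 1, 11, 12 and 13.

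Fewer probe sets of the other clusters were called, and those called differed less, except Hoxc4 and 1 probe set of Hoxa3. Some uncalled differences in pre-granulosa minus ovary lay near the -2.15 of Hoxd9, without overlap of the groups. They were -2.18 for Hoxb3 probe set 1456229_at, -2.15 for Hoxa9 and -1.91 for Hoxc10 (adjusted p 0.0165, 0.042 and 0.0190 in limma's test). In the Hoxa cluster 4 of 16 probe sets were lower in pre-granulosa cells than in ovaries and 1 in Sertoli cells than in testes. Hoxa3, a regulator of pharyngeal organs, read 5.19 and 6.19 in pre-granulosa cells, 6.22 and 7.03 in Sertoli cells, 8.27 and 8.41 in ovaries, and 7.68 and 8.06 in testes by its brightest probe set, 1427433_s_at. That gave -2.39 ± 0.40 (adjusted p 0.00790) in pre-granulosa minus ovary, while -1.03 (adjusted p 0.0722) in Sertoli minus testis was not called. Its probe set 1452421_at read 4.69 and 4.95 in pre-granulosa cells, 5.09 and 4.69 in Sertoli cells, 6.45 and 6.48 in ovaries, and 6.55 and 6.69 in testes, and was lower in both comparisons (-1.39 and -1.52), with both other Hoxa3 probe sets uncalled. With 1 array omitted, the brightest probe set was called in 3 of 8 fits in pre-granulosa minus ovary.

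Hoxa2, which patterns the hindbrain, read 4.22 and 3.75 in pre-granulosa cells, 3.99 and 4.28 in Sertoli cells, 5.44 and 5.68 in ovaries, and 5.52 and 5.05 in testes. Pre-granulosa cells were at background, at least 0.52 under ovaries (fitted difference -1.32, adjusted p 0.00878), and Sertoli minus testis was not called. The Hoxa2 call was made in 0 of 8 fits with 1 array omitted. Hoxa5, which acts in lung and foregut, was lower in pre-granulosa cells by 1 of its 2 probe sets. That probe set, 1448926_at, read 4.80 and 4.53 in pre-granulosa cells, 5.90 and 5.23 in Sertoli cells, 6.19 and 6.67 in ovaries, and 5.94 and 6.26 in testes, a difference of -1.51 ± 0.29 (adjusted p 0.00991) from ovaries. The brighter Hoxa5 probe set gave -0.50 and was not called, and the call of the dimmer one was made in 2 of 8 fits with 1 array omitted.

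In the Hoxb cluster Hoxb13, a gene of the prostate and tail bud, read 5.09 and 4.74 in pre-granulosa cells, 5.07 and 4.79 in Sertoli cells, 6.15 and 6.36 in ovaries, and 6.18 and 6.04 in testes. It was lower in both sorted populations, at -0.97 ± 0.19 in Sertoli minus testis (adjusted p 0.00933) and -1.08 ± 0.19 in pre-granulosa minus ovary (adjusted p 0.00679), called in 2 of 8 and 1 of 8 fits with 1 array omitted. Hoxb3 was lower in Sertoli cells only by its dimmer probe set, 1427605_at, with 4.29 and 4.05 in pre-granulosa cells, 4.51 and 4.19 in Sertoli cells, 5.03 and 5.11 in ovaries, and 5.67 and 5.88 in testes. The Sertoli arrays were at background, at least 0.78 under testes (fitted difference -1.21, adjusted p 0.00436), and the brighter Hoxb3 probe set, at -0.93, was not called. The call was made in 2 of 8 fits with 1 array omitted.

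Hoxb1, the 3′ gene of its cluster and a direct target of retinoic acid receptors, was the one member that was higher in a sorted population. It read 4.20 and 3.95 in pre-granulosa cells, 5.52 and 5.13 in Sertoli cells, 3.83 and 3.46 in ovaries, and 3.53 and 3.45 in testes. The Sertoli arrays were the only arrays over background. The fitted difference from testes was 2.05 ± 0.21 (adjusted p 0.00317), and with both testis arrays at background it was at least 0.76. The call was made in 4 of 8 fits with 1 array omitted, and not made with dim probe sets left out, since Hoxb1 is then not tested.

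In the Hoxc cluster Hoxc4 and 1 probe set of Hoxc5, genes of the cervical and thoracic trunk, were lower in Sertoli cells than in testes, and no Hoxc probe set was called in pre-granulosa minus ovary. Hoxc4 read 8.88 and 10.18 in pre-granulosa cells, 8.15 and 7.58 in Sertoli cells, 10.47 and 10.53 in ovaries, and 10.60 and 10.53 in testes. The Sertoli arrays were the lowest and did not overlap any other group, with a difference from testes of -2.49 ± 0.42 (5.61-fold, adjusted p 0.00824). Hoxc5 probe set 1439885_at read 6.33 and 6.03 in pre-granulosa cells, 4.88 and 4.24 in Sertoli cells, 6.81 and 7.25 in ovaries, and 6.32 and 6.94 in testes, a difference from testes of -1.85 ± 0.32 (adjusted p 0.00811). Both other Hoxc5 probe sets were uncalled there, at 0.39 and -0.29. The Hoxc4 and Hoxc5 calls were each made in 2 of 8 fits with 1 array omitted. Hoxc8, with 8.85 and 6.79 on the Sertoli arrays, and Hoxc10, with 4.99 and 4.28, gave -2.20 (adjusted p 0.0374) and -2.06 (adjusted p 0.0163) and were not called.

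Markers of other cell types, read at 1 probe set per gene, moved in the same comparisons. Among all genes read so, 8.71% were called lower in Sertoli minus testis and 9.12% in pre-granulosa minus ovary. The 8 interstitial markers, among them Pdgfra and Tcf21, were lower for 4 in each comparison, with means per array of 6.46 to 7.54 in pre-granulosa cells, 7.24 to 7.49 in Sertoli cells, 10.15 to 10.34 in ovaries and 10.93 to 11.01 in testes. The mean of Hoxd3, Hoxd8, Hoxd9 and Hoxd10 was 6.96 and 7.80, 8.25 and 8.47, 11.17 and 11.27, and 11.82 and 11.89 in the same order. Germ cell markers were lower for 6 of 7 in Sertoli minus testis and 7 of 7 in pre-granulosa minus ovary, with Ddx4 at background on the sorted arrays. Endothelial markers were lower for 3 and 4 of 7, erythroid markers for 3 and 4 of 5, coelomic epithelium markers for 2 and 1 of 4 and smooth muscle markers for 2 and 1 of 5. Mesonephric tubule and duct markers were called for 1 higher and 1 lower of 7 in Sertoli minus testis and for 0 of 7 in pre-granulosa minus ovary, where their means were 6.60 to 6.67 and 6.84 to 6.90. Macrophage markers were lower for 1 of 6 in Sertoli minus testis, with means of 6.30 to 7.26 against 6.45 to 6.64, and for 4 of 6 in pre-granulosa minus ovary, with 4.53 to 4.74 against 6.84 to 7.02. Signs of RNA quality moved too: the 3′ minus 5′ difference of the Gapdh control probe sets was 1.94 and 2.69 in Sertoli cells against 0.72 and 0.95 in testes, and that of actin 2.17 and 2.51 against 1.57 and 1.96. In pre-granulosa cells it was 3.68 and 1.24 for Gapdh and 3.08 and 1.70 for actin, against 1.55 and 1.40, and 2.33 and 2.18, in ovaries. What part cell types or RNA quality have in the Hox differences was not tested, and sorting and the separate normalization cannot be told apart from the groups.

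**Figure D3:**
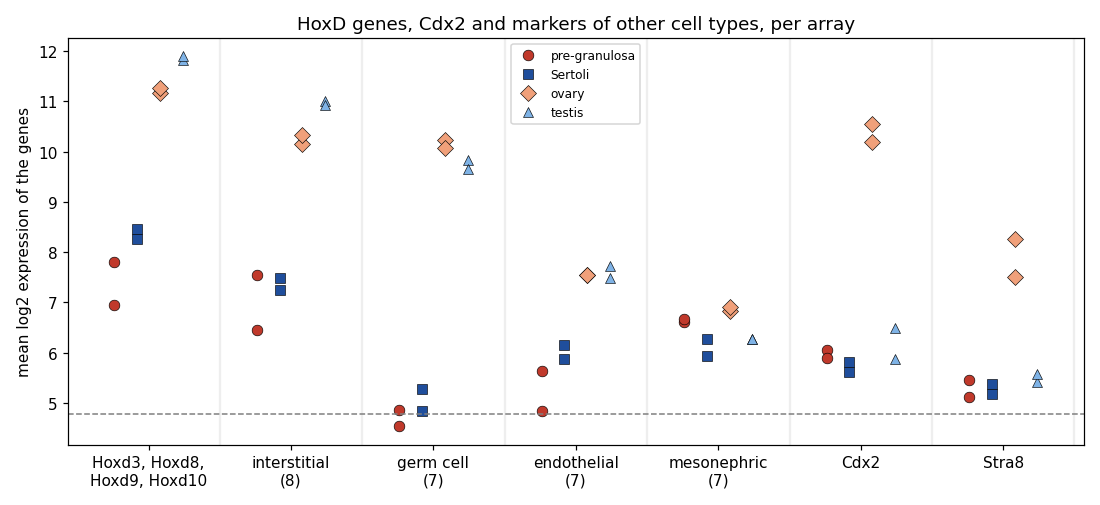
Mean log2 expression per array (vertical axis) of 4 Hoxd genes, of marker lists with the number of genes in brackets, and of Cdx2 and Stra8 alone, with 1 point per array and the dashed line at background. The mean of the 4 Hoxd genes and that of the interstitial markers lie under 8.5 in sorted cells and over 10 in gonads. Single Hoxd genes do not all do so, and the 4 were picked as lower in these same comparisons. Cdx2 and Stra8 are both highest in ovaries.

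Sertoli cells were then set against pre-granulosa cells. Of the family, Hoxd10 alone was called, being higher in Sertoli cells. The difference was 2.58 ± 0.18 (SE, n = 2 per group), 5.98-fold, with an adjusted p of 0.00174 in limma's test, and the groups did not overlap. The 1 call among 52 probe sets, higher, stands beside 1.81% called among all probe sets (0.999% higher, 0.813% lower). The median absolute difference of the 52 was 0.193, against 0.252 for all probe sets. The groups did not overlap for 14 probe sets with greater and 8 with smaller values in Sertoli cells, against 20.9% and 20.5% of all. Pre-granulosa sample 1, with 3′ minus 5′ differences of 3.08 for the actin and 3.68 for the Gapdh control probe sets, stood apart from pre-granulosa sample 2 (1.70 and 1.24), and without it the Hoxd10 difference was 2.44 (adjusted p 0.00497). The adjusted p rose over 0.01 without Sertoli 1 (0.0105), Sertoli 2 (0.0118) or either testis array (0.0103), and was 0.0660 with only the 4 sorted-cell arrays fitted. Some lists named for other cell types also read more on both Sertoli arrays than on both pre-granulosa arrays. Means were 6.30 to 7.26 against 4.53 to 4.74 for macrophage markers (1 of 6 called, C1qb), 7.50 to 7.60 against 5.29 to 5.33 for neural markers (1 of 3 called, Sox10), 8.23 to 9.39 against 6.47 to 6.92 for fetal Leydig markers (0 of 4 called), and 5.88 to 6.16 against 4.85 to 5.63 for endothelial markers (1 of 7 called, Robo4). At 1 probe set per gene, 2.67% of all genes were called in this comparison. The part of these cell types in the Hoxd10 difference was not tested.

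Members of the Hoxc cluster gave the largest values in the opposite direction, none of them called. Hoxc4 gave -1.67 ± 0.42 (adjusted p 0.0867) and Hoxc5 probe set 1439885_at -1.62 ± 0.32 (adjusted p 0.0429), and in both the Sertoli arrays did not overlap the pre-granulosa arrays. Both other Hoxc5 probe sets gave -0.10 and -0.08. Hoxb1 gave 1.25 (adjusted p 0.0254), with only the Sertoli arrays over background, and at least 0.54 with the pre-granulosa arrays at background. Hoxb4 gave -1.46 (adjusted p 0.384) through 1 array, with 7.59 on pre-granulosa 2 against 5.11 on pre-granulosa 1. Hoxd3, Hoxd8 and Hoxd9, which shared the sorted minus gonad pattern of Hoxd10, gave 0.43, 0.87 and 0.04.

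Testes were set against ovaries in the same way. Cdx2 alone of the family was called, being lower in testes. Its probe set 1422075_at read 10.54 and 10.18 in ovaries, 5.88 and 6.49 in testes, 6.05 and 5.89 in pre-granulosa cells, and 5.61 and 5.81 in Sertoli cells. The ovary arrays stood about 4 log2 units over all others. Testis minus ovary was -4.18 ± 0.25 (SE, n = 2 per group), 18.1-fold, with an adjusted p of 0.00327 in limma's test, and pre-granulosa minus ovary was -4.14 ± 0.25, 17.6-fold, with an adjusted p of 7.20e-04. Both comparisons use the same ovary arrays. Sertoli minus pre-granulosa was -0.26 (adjusted p 0.670). The 1 call, lower, stands beside 0.215% called among all probe sets (0.155% higher, 0.0600% lower).

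The second Cdx2 probe set, 1422074_at, did not follow the first: it read between 4.54 and 4.87, over background on 3 arrays, and gave -0.18 in testis minus ovary. The Cdx2 difference between the gonads thus rests on 1 of 2 probe sets. Its adjusted p was 0.0136 with only the 4 gonad arrays fitted and ran from 0.00693 to 0.0513 with 1 array omitted: 0.0513 without ovary 1, 0.0362 without ovary 2, 0.0473 without testis 1, 0.0377 without testis 2, 0.0111 without either Sertoli array and 0.00693 without either pre-granulosa array. Cdx1 read 5.48 and 5.38 in ovaries and 5.29 and 5.23 in testes, with a difference of -0.17, and Cdx4 was at background throughout.

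Germ cell genes were read beside Cdx2, since their list mean lay between 4.54 and 5.27 on the sorted arrays, far under the ovary arrays. Their list mean was 10.06 to 10.23 in ovaries and 9.66 to 9.83 in testes, with 0 of 7 called between the gonads. Stra8, which marks XX germ cells entering meiosis, read 8.27 and 7.51 in ovaries, 5.42 and 5.58 in testes, 5.11 and 5.46 in pre-granulosa cells, and 5.18 and 5.37 in Sertoli cells. Stra8 was lower in pre-granulosa cells than in ovaries (-2.35, adjusted p 0.00288), and -2.39 in testis minus ovary (adjusted p 0.0249) was not called. Which cells of the ovary carry the Cdx2 signal was not tested.

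No Hox gene was called between the gonads. Hoxa9, a 5′ Hoxa gene of the posterior trunk and reproductive tract, read 9.47 and 9.43 in ovaries, 6.79 and 8.84 in testes, 7.44 and 6.67 in pre-granulosa cells, and 6.75 and 7.17 in Sertoli cells. The testis replicates lay 2 log2 units apart, and testis minus ovary was -1.64 ± 0.65 (adjusted p 0.512) with no overlap. Hoxd10 gave 0.59 (adjusted p 0.333), Hoxd3 0.85, Hoxd8 0.82 and Hoxd9 0.29, each with both testis arrays above both ovary arrays. Over the family the groups did not overlap for 12 probe sets with greater and 16 with smaller values in testes, against 23.0% and 27% of all, and the median difference was -0.11 against -0.02.

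**Figure D4:**
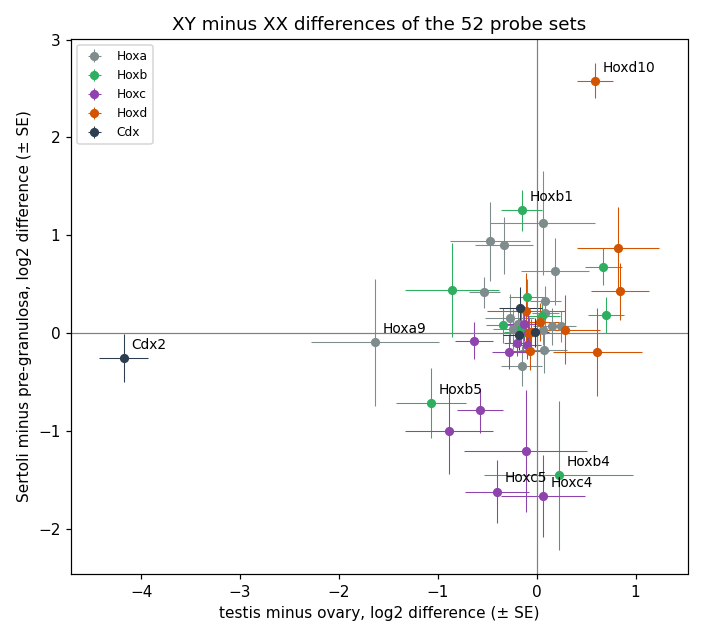
Log2 difference of the 52 probe sets in testis minus ovary (horizontal axis) and in Sertoli minus pre-granulosa (vertical axis), with SE bars and the colour giving the cluster. Cdx2 lies at -4.18 on the horizontal axis and near 0 on the vertical one, Hoxd10 at 2.58 on the vertical axis and 0.59 on the horizontal one, and most others near the origin.

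Whether the XY minus XX difference was the same in sorted cells as in gonads was tested as a difference of the 2 comparisons. No member was called, and none of all probe sets was (0.00%), in limma's test, whose lowest adjusted p was 0.0253. At an unadjusted p under 0.05 were 8 of the 52 (15.4%) and 5142 of all (11.4%). Cdx2 gave 3.92 (adjusted p 0.0345) and Hoxd10 1.99 (adjusted p 0.0564).

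The partners and regulators of HOX proteins were read at 1 probe set per gene, where 2.67% of genes were called in Sertoli minus pre-granulosa, 0.352% in testis minus ovary, 9.70% in Sertoli minus testis (8.71% lower) and 9.62% in pre-granulosa minus ovary (9.12% lower). Among 10 measured TALE cofactors, the PBX, MEIS, PKNOX and TGIF proteins, Pbx3 and Pknox2 were called. Pbx3 read 11.96 and 12.31 in pre-granulosa cells, 10.03 and 9.75 in Sertoli cells, 12.34 and 12.39 in ovaries, and 11.29 and 11.38 in testes. It was lower in Sertoli cells than in pre-granulosa cells (-2.24 ± 0.18, adjusted p 0.00265) and than in testes (-1.23). Pknox2 was lower in Sertoli cells than in testes (-3.33) and in pre-granulosa cells than in ovaries (-2.09). Meis1 and Meis2 were not called in any comparison.

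Of 16 Polycomb genes 1 was higher in Sertoli than in pre-granulosa cells, 3 were lower in Sertoli cells than in testes and 2 in pre-granulosa cells than in ovaries. Ezh2, the histone methyltransferase of the complex, read 8.42 and 8.42 in pre-granulosa cells, 9.97 and 10.08 in Sertoli cells, 10.39 and 10.35 in ovaries, and 10.18 on both testis arrays. The pre-granulosa arrays were the low ones: Sertoli minus pre-granulosa was 1.61 ± 0.13 (adjusted p 0.00265) and pre-granulosa minus ovary -1.70 ± 0.13. Suz12, its core partner, was lower in both sorted populations (-1.52 and -1.60), as was the trithorax subunit Ash2l (-1.65 and -1.43), the only gene called of 9 trithorax and demethylase genes. Jarid2 (-1.84) and Bmi1 (-1.97) were lower in Sertoli cells than in testes.

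Among 13 signals upstream of Hox genes, Cyp26b1, which degrades retinoic acid, was higher in Sertoli than in pre-granulosa cells (2.87 ± 0.30, adjusted p 0.00551) and in testes than in ovaries (3.60, adjusted p 0.00852). Aldh1a1, which makes retinoic acid, was higher in Sertoli than in pre-granulosa cells (1.22). Aldh1a2, another such enzyme, was lower in Sertoli cells than in testes (-1.61), and the receptor Rarg lower in pre-granulosa cells than in ovaries (-1.67). The list's medians over the 4 comparisons ran from -0.12 to -0.01.

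Intestinal targets of Cdx2, and factors of the trophectoderm that are not all its targets, were read beside it. Of 7 intestinal targets none was called in testis minus ovary or pre-granulosa minus ovary. Hnf4a alone was called, higher in Sertoli cells than in testes by at least 2.96, with 7.34 and 7.72 in Sertoli cells against 3.62 and 3.87 in testes, and 4.28, 4.47, 5.87 and 4.01 in the XX samples. Isx and Krt20 gave -2.03 (adjusted p 0.115) and -1.23 (adjusted p 0.422) in testis minus ovary. Of 5 trophectoderm factors Tead4 was lower in Sertoli cells than in testes (-0.82), with no other call.

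Homeobox genes outside the clusters also differed. Of 14 with known roles in gonad or urogenital tissue, Lhx9 was lower in Sertoli cells than in pre-granulosa cells (-4.43). In Sertoli cells against testes 5 were lower, Emx2, Lhx1, Lhx9, Six4 and Prrx1, and in pre-granulosa cells against ovaries also 5, Lhx2, Irx1, Six4, Prrx1 and Prrx2. Six4 was at background on all sorted arrays and at least 3.76 under testes and 3.74 under ovaries, and Prrx1 at least 3.24 under ovaries. Lhx2 and Irx1 read background in pre-granulosa cells. Among 5 ParaHox and Evx genes Evx1, next to the Hoxa cluster, was lower in both (-0.94 and -1.15).

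Genes beside the clusters were read to see whether the Hoxd pattern ran on past its ends. Of 3 measured neighbours of the Hoxd cluster on chromosome 2, Lnpk was lower in Sertoli cells than in testes (-1.62), with -0.29 in pre-granulosa minus ovary. Evx2, next to Hoxd13, gave -0.17 and -0.20, and Mtx2, beyond Hoxd1, -0.64 and -0.97, none of them called. Of 3 Hox antisense transcripts measured, 1 was called in Sertoli minus testis and 0 in pre-granulosa minus ovary, with medians of -0.14 and -0.26. The called one, Hoxd3os1, is given after its values were seen. Hoxd3os1 read 3.79 and 4.82 in pre-granulosa cells, 4.48 and 3.81 in Sertoli cells, 6.65 and 6.73 in ovaries, and 8.0 and 7.38 in testes. It was at background in Sertoli cells, at least 2.69 under testes (fitted difference -3.33, adjusted p 0.00329), and -2.13 (adjusted p 0.0112) in pre-granulosa minus ovary was not called. Of the other neighbours, Calcoco2 near the Hoxb cluster on chromosome 11 read 7.54 and 7.66 in ovaries against 4.68 to 4.97 on all other arrays. It was lower in testes than in ovaries (-2.75) and in pre-granulosa cells than in ovaries (-2.50). Atp5g1 beside Hoxb and Smug1 beside Hoxc were lower in both sorted populations, with differences from -1.23 to -0.68.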

How the data were processed

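RNA of 8 samples (about 20 ng each) was labelled with the Ovation Biotin (NuGEN) protocol, and about 2.5 µg of labelled cDNA was put on each array, per the labels' protocols. Values were deposited by the authors as log2 expression, made with RMA (no version given) per the submitters' processing notes. The authors tested with R/maanova at a 1% false discovery rate, per the series text, and that output was not used here. Scanner files were not used, so no detection calls entered.

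Of 45101 rows 64 array controls were left out. GEO's platform annotation gave a single symbol for 34945 probe sets, several for 932 and none for 9160, and 3 probe sets with several symbols that include a Hox gene were left out. Symbols were compared with the RefSeq table of GRCm38.p6 by gene identifier for 34741 probe sets, and 0 changed.

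The test was limma 3.58.1 (R 4.3.3), with lmFit on 1 mean per group over all 8 arrays (4 residual degrees of freedom), eBayes, two-sided p and Benjamini-Hochberg adjustment, called at 0.01. The procedure was tested on simulated data. Comparisons share groups: the Sertoli, pre-granulosa, ovary and testis arrays each enter 2 of the 4.

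Members and lists were chosen with earlier results of these data known. Values per array are given for members called in any comparison or at least 1.5 log2 units apart between XY and XX without overlap. From other lists, called genes and up to 3 others are named. Replicate numbers did not pair the samples: correlations of replicate differences between groups ran from -0.156 to 0.0493. Alternatives were other normalizations, centring, a filter on dim probe sets, other moderation, weights, thresholds, a replicate block and omission of each array.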

Additional observations from a re-analysis of the deposited data

Results flagged for a closer look

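Cdx2 was the one result singled out for a second look. A looser threshold, an adjusted p of 0.05, was set for a difference between its XY minus XX values in sorted cells and in whole gonads. The difference of the 2 comparisons was 3.92 by probe set 1422075_at, with an adjusted p of 0.0345 in limma's test, under 0.05 but over the threshold of 0.01 used for calls. Sertoli minus pre-granulosa was -0.26 and testis minus ovary -4.18. Its second probe set gave -0.01 and -0.18 in the same order.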

How the results depend on the processing

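The counts of called members were 1 in Sertoli minus pre-granulosa, 1 in testis minus ovary, 11 in Sertoli minus testis, 11 in pre-granulosa minus ovary, with 0 for the difference of the XY minus XX comparisons. In the order Sertoli minus testis and pre-granulosa minus ovary, they were 7 and 5 after quantile normalization over all 8 arrays, 6 and 6 with each array centred on its median, and 7 and 7 with dim probe sets left out. Over all probe sets the counts were 2469 and 2116, 3019 and 2482, and 2481 and 2389 of 22519, against 3890 and 3728 in the main fit. A weight per group gave 7 in pre-granulosa minus ovary (1947 of all probe sets), and 1 probe set per gene 7 in Sertoli minus testis (1986 of 18193). Without moderation the counts were 0, 0, 2 and 2 for the 4 comparisons, and with only the 4 arrays of a set fitted they were 0 and 0 for the XY minus XX comparisons. Over all probe sets they were 13, 0, 657 and 610, and 0 and 80, in the same order. An adjusted p of 0.05 gave 3 in Sertoli minus pre-granulosa, 18 in Sertoli minus testis, 1 for the difference and 25 in pre-granulosa minus ovary. Over all probe sets it gave 2476, 10818, 113 and 11079 in the same order. The replicate block gave 1, 0, 7 and 6, and the Cdx2 difference between gonads then had an adjusted p of 0.0171, though the numbers did not pair the samples. Over all probe sets the block gave 341, 17, 2190 and 1897. With 1 array omitted, which assumes that the lone array of its group varies like the other groups, counts ran from 0 to 2, 0 to 1, 0 to 11, 2 to 9, and 0 to 0 for the difference. Omitting either testis array removed every call in Sertoli minus testis over all probe sets. Omitting any ovary or testis array did the same in testis minus ovary. In those comparisons no probe set could thus be called in 8 of 8 omissions, and calls lost there are not particular to the members. Omitting an ovary array cut the calls over all probe sets in pre-granulosa minus ovary. Called differences kept their sign in all 227 values under other settings (56 no longer called) and all 192 with an array omitted (105 no longer called). The Hoxd10 and Cdx2 differences in pre-granulosa minus ovary were called in 10 of 10 settings and 8 of 8 omissions, and those of Hoxd3 and Hoxd10 in Sertoli minus testis in 10 of 10 and 6 of 8. The least stable calls in pre-granulosa minus ovary were Hoxa2 (4 of 9 and 0 of 8), Hoxb13 (4 of 9 and 1 of 8) and Hoxa5 (3 of 8 and 2 of 8). With 2 arrays per group and 4 residual degrees of freedom, and readings up to 4.78 at background, smaller differences may go uncalled.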
